A study of Mus musculus with 2 samples.

Results

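Neutrophil primary granule genes are the 9 genes Mpo, Elane, Prtn3, Ctsg, Fcnb, Ms4a3, Nkg7, Rab44 and Mgst2, a list of azurophil granule contents and of other genes of promyelocytes. All probes annotated with 1 of these symbols were taken, which gave 15 of the 45281 probes on each array and 9 of 19057 named genes. The series measured messenger RNA from femoral bone marrow with Illumina bead arrays (MouseWG-6 v2.0) to ask how blood formation is altered in mutants of Dnmt2, an RNA methyltransferase of transfer RNAs. The groups were Dnmt2-/- marrow (1 array) and wild type marrow (1 array), both from mice of 8 days. The labels give neither the Dnmt2 allele, nor the strain, nor the number of mice behind each RNA. With 1 array in each group nothing could be tested and no value has an error, so every difference is a difference between these 2 arrays, and their number limits the precision. In bulk marrow, fewer cells of a type and less RNA per cell cannot be told apart.

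Neutrophils pack their granules in an order that follows their maturation. The primary, or azurophil, granules are filled at the promyelocyte stage with myeloperoxidase and with serine proteases related to elastase, and the specific and gelatinase granules are filled later by myelocytes and older cells. In mouse and human progenitors, transcription of these early genes depends on PU.1, C/EBP alpha, MYB and RUNX1, and ceases as the cell matures.

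The arrays are named here by their labels, which were checked first. Trdmt1, the gene symbol of Dnmt2, has 4 dim probes, and 3 of them were higher on the array labelled Dnmt2-/-, by 1.53-fold, 1.58-fold and 1.88-fold, against the direction that a loss of the transcript would give. The brightest read 149 intensity units on the array labelled Dnmt2-/- and 112 on the wild type array. The 1.88-fold probe read 113 on the array labelled Dnmt2-/- (detection p 0.00067) and 84.1 on the wild type array (detection p 0.99). The fourth probe had a log2 ratio of -0.27. The label Dnmt2-/- is thus not borne out by Trdmt1, every direction below rests on the labels alone, and where the probes lie relative to the deleted part is not known here (a probe outside it checks nothing). The brightest Xist probe gave 92.8 on the array labelled Dnmt2-/- (not detected) and 823 on the wild type array. The brightest probe of Y-linked Eif2s3y gave 467 on the array labelled Dnmt2-/- and 89.8 on the wild type array (not detected). Genotype label and these sex-linked transcripts differ together, so the effects of genotype and sex cannot be told apart. A probe counted as detected below a detection p of 0.01, which held for 19580 probes on the array labelled Dnmt2-/- and 18744 on the wild type array. The fitted background was 94.9 intensity units on the array labelled Dnmt2-/- and 90.9 on the wild type array. Markers of marrow blood formation were bright, for example Hbb-bs, an adult globin chain, at 21423 on the array labelled Dnmt2-/- and 20646 on the wild type array.

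All 9 primary granule genes were detected on both arrays, and each was lower on the array labelled Dnmt2-/- by its brightest probe. The size differed widely among them. Nkg7, Rab44 and Mgst2 were 1.89-fold, 1.73-fold and 1.57-fold lower, Fcnb was 1.46-fold lower, and the other 5, among them myeloperoxidase and the 3 serine proteases, were 1.04-fold to 1.19-fold lower. Ratios are differences of normalized log2 intensities, Dnmt2-/- minus wild type, after background correction, an offset of 16 and quantile normalization. The offset shrinks the ratios of dim genes. Raw log2 ratios, with background still in, were smaller in size for Nkg7 (-0.59), Rab44 (-0.34), Mgst2 (-0.41) and Fcnb (-0.31). For the first Mpo probe the raw ratio was larger in size (-0.12). By raw signal 12 of the 14 probes detected on both arrays were lower. The raw share over all probes was not counted, so this count has no value to be set beside. The median raw signal over all probes was 100 on the array labelled Dnmt2-/- and 95.1 on the wild type array. The median over the 9 genes was -0.26 on the log2 scale, beside -0.02 over the 9746 genes detected on both arrays. Of those 9746 genes, 51.7% were lower by any amount and 5.16% were at least 1.5-fold lower. Among the primary granule genes 9 of 9 were lower and 3 of 9 were at least 1.5-fold lower. Counted by probe, 13 of 14 detected on both arrays were lower, beside 51.6% of all such probes, and 3 of 14 were at least 1.5-fold lower, beside 5.11%. None of the 9 genes was at least 1.5-fold higher, beside 6.61% of all genes, and none differed by 2-fold or more, beside 1.62%. The list was drawn up with values of these arrays known, so its shares are a description and not a test.

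**Figure D1:**
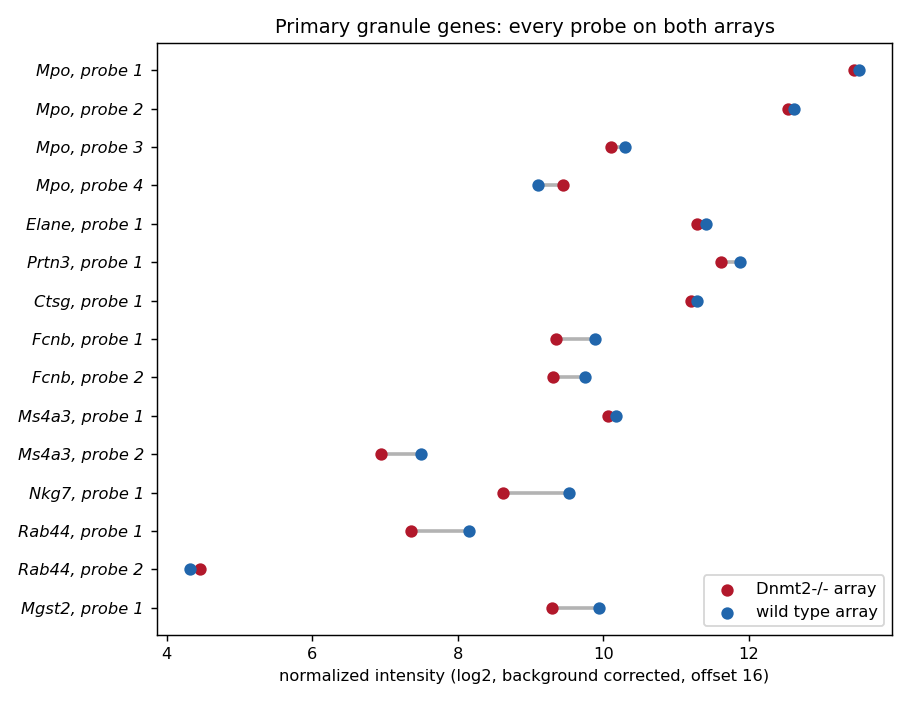
Normalized intensity (log2) of each of the 15 probes on the array labelled Dnmt2-/- (red) and the wild type array (blue), 1 point per array. The red point lies left of the blue one for 13 of the 14 probes detected on both arrays; the exception is Mpo probe 4, and Rab44 probe 2 was not detected.

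Mpo encodes myeloperoxidase, the haem enzyme that makes hypochlorous acid, and has 4 probes. The first gave 11118 on the array labelled Dnmt2-/- and 12081 on the wild type array, normalized log2 values of 13.45 (Dnmt2-/-) and 13.51 (wild type), and a ratio of -0.06. The second gave 5954 on the array labelled Dnmt2-/- and 6439.6 on the wild type array, with a ratio of -0.08, and the third gave 1239.9 on the array labelled Dnmt2-/- and 1281 on the wild type array, with a ratio of -0.20. The fourth probe pointed the other way. It gave 831 on the array labelled Dnmt2-/- and 579.7 on the wild type array, a log2 ratio of 0.34, or 1.27-fold higher. All 4 probes are annotated to the same RefSeq transcript, and their ratios spanned 0.54 on the log2 scale. Over 3375 genes with several detected probes, the SD between probes of a gene was 0.29. Where in the transcript each probe lies was not known here.

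Elane, Prtn3 and Ctsg encode neutrophil elastase, proteinase 3 and cathepsin G, serine proteases stored active in the azurophil granule. Elane gave 2618 on the array labelled Dnmt2-/- and 2768 on the wild type array, a log2 ratio of -0.12. Prtn3 gave 3243 on the array labelled Dnmt2-/- and 3839 on the wild type array, a log2 ratio of -0.26. Ctsg gave 2469.97 on the array labelled Dnmt2-/- and 2557 on the wild type array, a log2 ratio of -0.10. Each is measured by 1 probe, and all 3 ratios are smaller than the SD of 0.29 between probes of a gene. Of all genes detected on both arrays, 37.5% had a lower ratio than Elane, 23.5% a lower ratio than Prtn3 and 40.3% a lower ratio than Ctsg, so these 3 lay well inside the bulk of the transcriptome.

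Prtn3 and Elane are neighbours on chromosome 10, with no other protein-coding gene between them. The stretches from 110 bases before to 10 bases after their start sites are shown because both hold GAGGAAGT, CAACGG and TATAA in that order, and the far part of the Mpo promoter, from 250 to 131 bases before its start, is shown because it holds the longest of these matches too. The sequences are from RefSeq (GRCm38.p6) and run 5′ to 3′ on the gene's strand, which is the plus strand for each. Capitals mark matches on either strand to GAGGAA (bound by PU.1 and other ETS factors), AACNG (MYB), TTGCNNAA (C/EBP) and TATAA (TATA box).
Elane, chr10:79886202-79886321: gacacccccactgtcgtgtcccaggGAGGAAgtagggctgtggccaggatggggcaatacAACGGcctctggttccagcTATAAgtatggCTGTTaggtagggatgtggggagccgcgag
Prtn3, chr10:79879557-79879676: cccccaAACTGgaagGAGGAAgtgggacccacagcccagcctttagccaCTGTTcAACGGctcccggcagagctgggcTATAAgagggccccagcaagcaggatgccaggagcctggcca
Mpo, chr11:87793534-87793653: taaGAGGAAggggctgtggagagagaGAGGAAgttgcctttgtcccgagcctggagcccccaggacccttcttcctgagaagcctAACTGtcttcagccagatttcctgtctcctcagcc

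The window searched was 250 bases before to 50 bases after each start, and 8 of the 9 genes had an entry, all but Rab44. GAGGAA was found in 5 of 8 windows (Mpo, Elane, Prtn3, Ctsg and Ms4a3), beside 28.3% of 32817 promoters of the same length. The longer GAGGAAGT, which contains it, was in 3 of 8 (Mpo, Elane and Prtn3), beside 3.2% of all. In Elane it began 85 bases before the start and in Prtn3 95 bases before, followed in Elane by CAACGG at 51 bases and TATAA at 31 bases before the start and in Prtn3 by CAACGG at 56 bases and TATAA at 32 bases. CAACGG, a longer form of the MYB letters, was in these 2 of the 8, beside 5.12% of all promoters. AACNG was in 7 of 8 (80.3% of all), TATAA in 5 of 8 (24.9%) and TTGCNNAA in 2 of 8, Fcnb and Ms4a3 (10.8%). The counts take matches anywhere in the window. The TATAA match of Ctsg lay on the opposite strand, 236 bases before the start. Both the GAGGAA and the TTGCNNAA match of Ms4a3 lay after the start. A match describes the letters in the window and is not a binding site shown by these data.

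Fcnb encodes ficolin B, a lectin of myeloid cells that recognises microbial sugars and can start the lectin pathway of complement. Its first probe gave 779.6 on the array labelled Dnmt2-/- and 968 on the wild type array, a log2 ratio of -0.54. Its second gave 760.1 on the array labelled Dnmt2-/- and 885 on the wild type array, a log2 ratio of -0.44. The 2 probes differed by 0.10 on the log2 scale, and 6.61% of all genes had a lower ratio than the first. Fcna, the macrophage ficolin and the only detected gene among the 7 others of the ficolin and lectin complement list, was also lower, with 740.0 on the array labelled Dnmt2-/- and 1142 on the wild type array, a log2 ratio of -0.87.

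Ms4a3 encodes a membrane-spanning protein that marks granulocyte and monocyte progenitors. Its first probe had a slightly higher signal on the array labelled Dnmt2-/- (1207) than on the wild type array (1176), and its ratio after normalization was -0.10. Its dimmer second probe gave 218 on the array labelled Dnmt2-/- and 237 on the wild type array, a log2 ratio of -0.55. In the Ms4a family 4 of 14 other genes on the array were detected on both, with a median of -0.11, 1 of them at least 1.5-fold higher and none lower by that much. The brightest was Ms4a7, at 345 on the array labelled Dnmt2-/- and 340.1 on the wild type array (log2 ratio -0.27), and Ms4a1, which encodes the B cell protein CD20, had a log2 ratio of 0.79, with signals of 129 on the array labelled Dnmt2-/- and 100.03 on the wild type array, near background.

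Nkg7, a granule membrane protein best known from natural killer and T cells, showed the largest difference of the 9. Its single probe gave 507 on the array labelled Dnmt2-/- and 764 on the wild type array, normalized log2 values of 8.62 (Dnmt2-/-) and 9.53 (wild type), and a log2 ratio of -0.91. Only 0.76% of all genes (74 of 9746) had a lower ratio. T and NK cell markers are given beside it because those cells also carry Nkg7. Of 16 such genes on the array 7 were detected on both, and 5 of these were at least 1.5-fold lower and 1 at least 1.5-fold higher, with a median of -0.79. These markers are dim and the median depended on the processing: it was -0.34 without background correction, -0.35 with the processed values and -0.04 without a detection filter. Cd3d gave 229 on the array labelled Dnmt2-/- and 305 on the wild type array (log2 ratio -0.92). Cd3g and the chemokine gene Ccl5 had log2 ratios of -1.32 and -1.05, and the perforin gene Prf1 had 0.10. The natural killer marker Ncr1 and the markers Cd4, Cd8a and Gzmb were not detected on either array. The summed signal above background of the 8 markers detected on at least 1 array was 489 on the array labelled Dnmt2-/- and 577 on the wild type array, and their part in the Nkg7 result was not tested.

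Rab44 encodes a large Rab GTPase with a calcium-binding region, known in mice from osteoclasts and mast cell granule release. Its first probe gave 262 on the array labelled Dnmt2-/- and 333 on the wild type array, a log2 ratio of -0.79, and 1.49% of all genes had a lower ratio. Its second probe, at 101 on the array labelled Dnmt2-/- and 93.4 on the wild type array, was detected on neither. Among 13 other Rab and granule release genes on the array 11 were detected on both, with a median of -0.19 and 8 of 11 lower. Rab27a, which docks azurophil granules and cytotoxic granules for release, was 1.70-fold lower, with 998 on the array labelled Dnmt2-/- and 1489 on the wild type array. The SNARE gene Vamp8 had a log2 ratio of -0.45, and Stxbp2, which encodes a SNARE partner, -0.21.

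Mgst2 encodes a microsomal glutathione transferase that can make leukotriene C4. It gave 754 on the array labelled Dnmt2-/- and 1003 on the wild type array, a log2 ratio of -0.65, and 3.57% of all genes had a lower ratio. Most of its relatives and of the leukotriene and prostaglandin E synthase genes listed with them lay on the same side. Of 11 on the array 9 were detected on both, 8 of these were lower and 3 at least 1.5-fold lower, with a median of -0.34. The 1 higher was Ltc4s, which encodes leukotriene C4 synthase (log2 ratio 0.16). Lta4h, at 114 on the array labelled Dnmt2-/- and 89.5 on the wild type array, and Cysltr1 were detected only on the former. The leukotriene B4 receptor gene Ltb4r1 gave 1196 on the array labelled Dnmt2-/- and 1792 on the wild type array (log2 ratio -0.73). The prostaglandin E synthase gene Ptges3 had a log2 ratio of -0.66. Its signals were 264 on the array labelled Dnmt2-/- and 311 on the wild type array. The bright Mgst3 and Alox5ap, which encodes the protein that presents arachidonic acid to 5-lipoxygenase, had log2 ratios of -0.14 and -0.08.

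**Figure D2:**
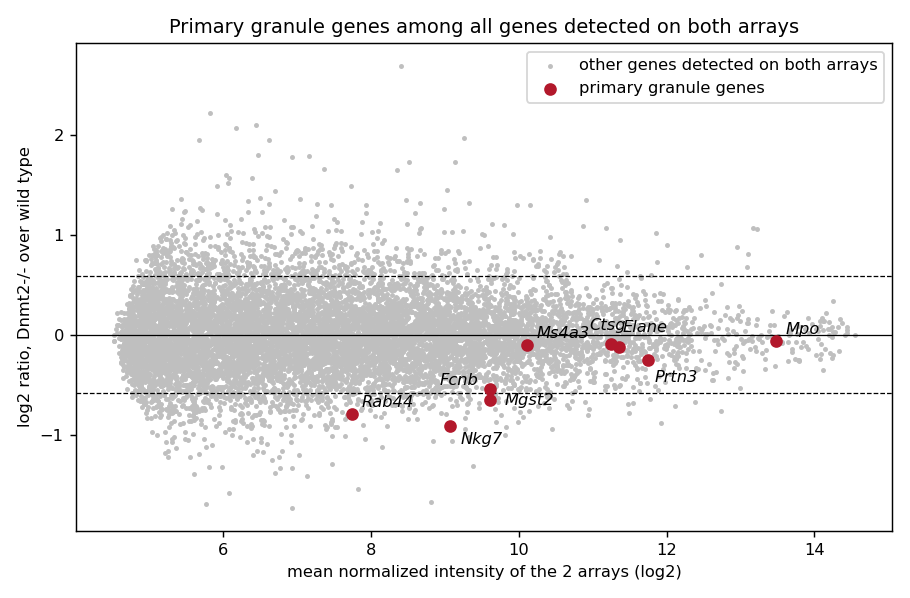
Log2 ratio of Dnmt2-/- over wild type against mean normalized intensity (log2), 1 point per gene detected on both arrays, with the 9 primary granule genes in red and dashed lines at 1.5-fold. Nkg7, Rab44 and Mgst2 lie below the lower dashed line and Mpo, Ctsg, Ms4a3 and Elane close to 0.

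The spread of ratios over all genes depended on brightness, so the 9 were also set beside genes as bright as they are. The 9746 genes were split into 4 groups of equal size by mean normalized intensity. Rab44 lay in the second brightest group, where 4.23% of genes were at least 1.5-fold lower. The other 8 lay in the brightest group, where 2.63% were, and Nkg7 and Mgst2 were the 2 of these 8 past that fold.

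The genes that make and handle granule contents did not share one direction. Of 14 other azurophil contents on the array 12 were detected on both, with a median of -0.03 (0.01 with median scaling), 7 of 12 lower and none past 1.5-fold. Lyz1, a lysozyme, gave 16425 on the array labelled Dnmt2-/- and 17676 on the wild type array (log2 ratio -0.05), and the lysosomal protease gene Ctsb had a log2 ratio of 0.07. Genes of protease maturation, sorting and inhibition had a median of -0.09 over 15 genes (0.06 with median scaling), with 10 lower. The 2 at least 1.5-fold lower were Vps45 (log2 ratio -0.73), which serves vesicle transport, and Cst7 (-0.60). Both were dim, Vps45 at 203 (Dnmt2-/-) and 239 (wild type) and Cst7 at 183 (Dnmt2-/-) and 199 (wild type). The 5 higher genes included Hax1 (0.53) and Jagn1 (0.45). Ctsc, whose product activates the granule serine proteases, had a log2 ratio of -0.13, and Srgn, which encodes the granule proteoglycan serglycin, also -0.13. The 3 detected Ctsc probes ran from -0.13 to 0.13. Slpi, which encodes an elastase inhibitor, had -0.53, Cst7, which encodes the cathepsin inhibitor cystatin F, -0.60, and the serpin gene Serpinb6a -0.09.

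Transcription factors of granulopoiesis had a median of -0.08 over 12 of 15 genes (0.09 with median scaling), 8 of them lower. Spi1, which encodes PU.1, was 1.70-fold lower, at 177 on the array labelled Dnmt2-/- and 207 on the wild type array. These signals were dim, beside fitted backgrounds of 94.9 (Dnmt2-/-) and 90.9 (wild type). Myb was 1.77-fold higher, at 136 on the array labelled Dnmt2-/- and 102 on the wild type array, near background. Cebpe, which drives the change to later granules, had a log2 ratio of -0.19 by its brightest probe, Gfi1 -0.09 and Runx1 -0.08. The 4 detected Cebpe probes ran from -0.19 to 0.30. Cebpa read 101 on the array labelled Dnmt2-/- (detected) and 96.5 on the wild type array (not detected). Other genes of myeloid progenitors and promyelocytes had a median of -0.19 over 13 of 15 genes, 8 lower and 3 at least 1.5-fold lower. Plac8 gave 4003 on the array labelled Dnmt2-/- and 4598 on the wild type array (log2 ratio -0.19), and Csf3r, the G-CSF receptor gene, had a log2 ratio of -0.76. Csf3r was dim, at 182 on the array labelled Dnmt2-/- and 213 on the wild type array. Its 2 detected probes ran from -0.76 to -0.47. The progenitor receptor gene Kit gave 975 on the array labelled Dnmt2-/- and 613 on the wild type array (0.54).

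Genes of the later granules had almost the same median as the primary granule genes, -0.25 over 16 of 19 genes, with 13 of 16 lower, 1 at least 1.5-fold lower and 1 at least 1.5-fold higher. Ltf, which encodes lactoferrin of the specific granules, gave 17550.1 on the array labelled Dnmt2-/- and 21139 on the wild type array (log2 ratio -0.23). Cyba, a subunit of the NADPH oxidase, had -0.65, and S100a8 0.13. The gelatinase Mmp9 had 0.80, with 7526 on the array labelled Dnmt2-/- and 4373 on the wild type array; osteoclasts also make it. No difference between the early and the late granule genes was tested.

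**Figure D3:**
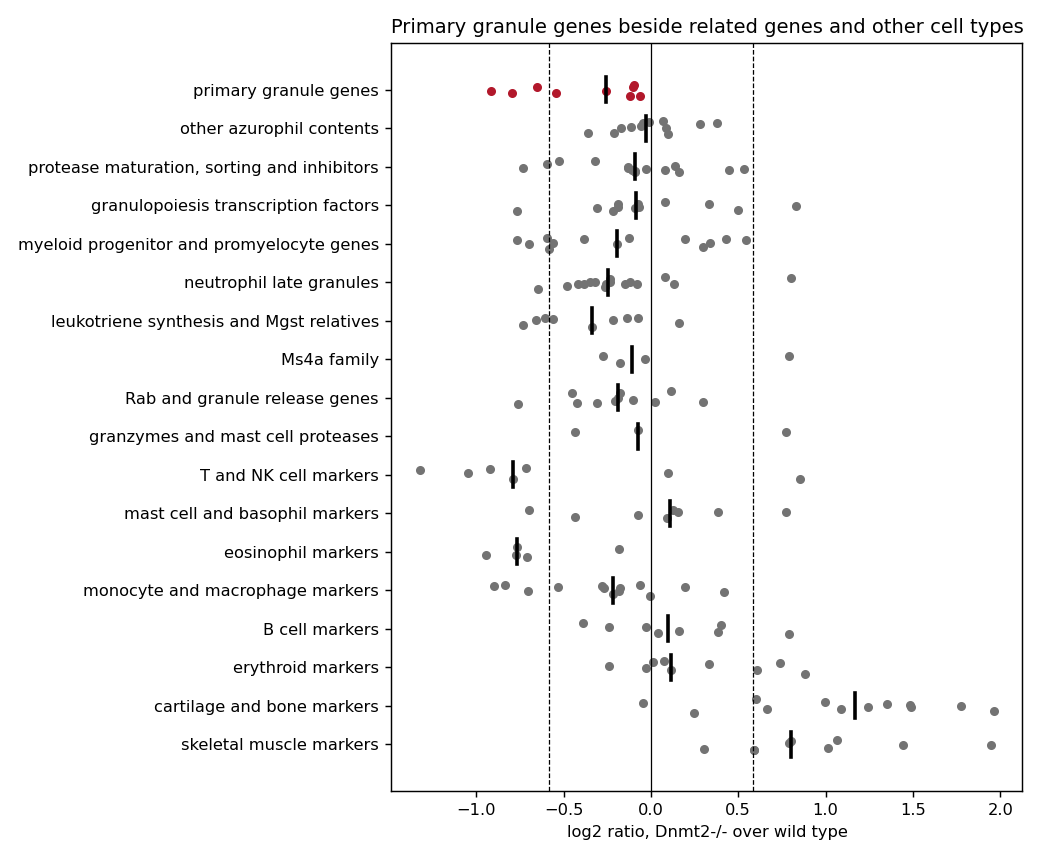
Log2 ratio of Dnmt2-/- over wild type for each gene detected on both arrays (points), by gene list, with the list's median as a black bar and dashed lines at 1.5-fold. The medians of primary granule genes (red, -0.26) and late granule genes (-0.25) lie left of 0. Those of cartilage and bone markers (1.17) and of muscle markers (0.80) lie to the right.

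Markers of other cells differed between the same arrays and are given beside the primary granule genes. Cartilage and bone markers were higher in 11 of 12 detected genes, 10 of them at least 1.5-fold, with a median of 1.17. Col2a1, the main cartilage collagen, gave 1348 on the array labelled Dnmt2-/- and 358 on the wild type array. Skeletal muscle markers were higher in 9 of 9, with a median of 0.80. The summed signal above background was 21311 on the array labelled Dnmt2-/- and 14973 on the wild type array for cartilage and bone. For muscle it was 11839 on the array labelled Dnmt2-/- and 5828 on the wild type array, and for the 9 primary granule genes 22105 on the array labelled Dnmt2-/- and 24671 on the wild type array. The part of such tissue in the lower granule gene values was not tested.

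Among the other blood lineages, eosinophil markers had a median of -0.77 over the 5 of 7 genes detected on both arrays. All 5 were lower, 4 of them at least 1.5-fold. The granule gene Prg3 was at -0.94, Ear6 at -0.77 and Prg2 at -0.18. Il5ra was detected only on the array labelled Dnmt2-/-, at 117, beside 93.2 on the wild type array. Monocyte and macrophage markers had a median of -0.22, with 11 of 13 lower and 3 at least 1.5-fold lower. Among the lower were Adgre1 at -0.90 and C1qc at -0.84, and the 2 higher were Csf1r at 0.20 and Cd14 at 0.42. Ccr2 was detected only on the array labelled Dnmt2-/- and Cd163 only on the wild type array. Mast cell and basophil markers (median 0.11 over 8 genes), B cell markers (0.10 over 8) and erythroid markers (0.12 over 9) lay slightly to the other side. Within them Hdc, the histidine decarboxylase gene of basophils and other myeloid cells, had -0.70, the pre-B receptor gene Igll1 0.04 and the transferrin receptor gene Tfrc 0.88.

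Nkg7 had the lowest ratio of the 9 genes under the main and all 8 alternative settings, while the order of the others and the count past 1.5-fold depended on the processing. Over the main and 8 alternative settings the log2 ratio of Nkg7 ran from -0.91 to -0.76, so it was at least 1.69-fold lower in each. Mgst2 ran from -0.65 to -0.53, Rab44 from -0.79 to -0.56 and Fcnb from -0.54 to -0.42. Prtn3 ran from -0.32 to -0.25, Elane from -0.15 to -0.12 and Ctsg from -0.12 to -0.09, while Ms4a3 ran from -0.33 to -0.03, its lowest value being the mean of its probes. Mpo ran from -0.19 to 0.00, and with the mean over its 4 probes 8 rather than 9 of the genes were lower. With median scaling Mpo, at -0.19, was lower than Elane (-0.15), Ctsg (-0.12) and Ms4a3 (-0.03), and without background correction Mgst2 (-0.59) was slightly lower than Rab44 (-0.58). With median scaling 1 gene, Nkg7, was at least 1.5-fold lower, beside 1.84% of all genes detected on both arrays. Without background correction 2 were, Nkg7 and Mgst2, beside 1.08% of all genes. In the main setting 3 were, beside 5.16%.

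**Figure D4:**
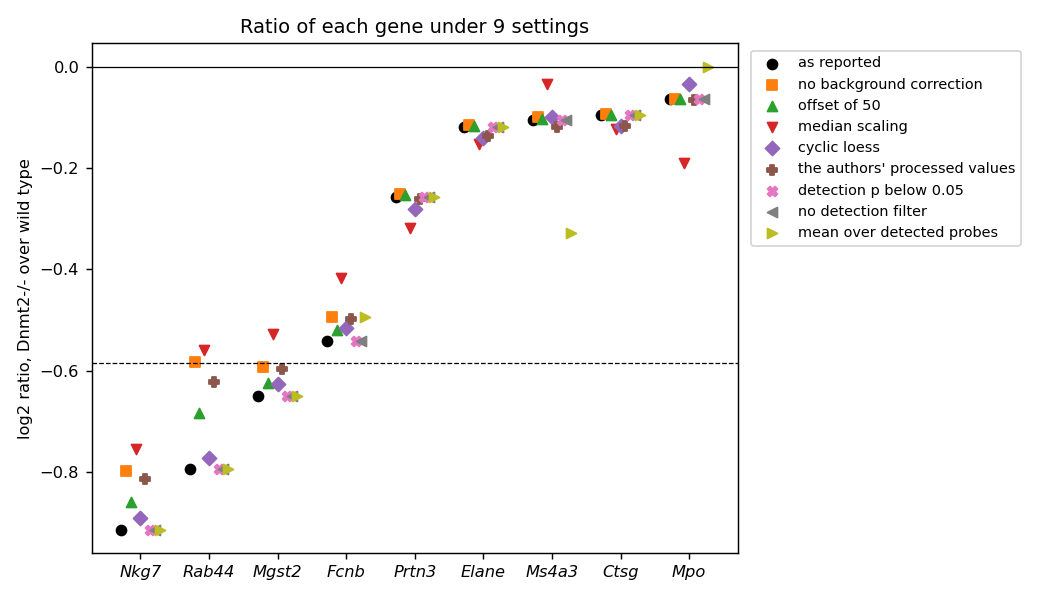
Log2 ratio of Dnmt2-/- over wild type for each primary granule gene under 9 settings of background correction, scaling, filter and probe choice, with a dashed line at 1.5-fold lower. Nkg7 lies below the line in every setting, Rab44 and Mgst2 cross it in some, and Mpo with the mean of its probes lies at 0.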

How the data were processed

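Bone marrow RNA was extracted with Trizol and amplified to biotin-labelled cRNA, per the labels' protocols, and 1 array per genotype was hybridised. The deposited non-normalized table gives a signal intensity per probe on a linear scale with background still in, and the deposited detection p-value of each probe, low above background. The authors' processed intensity values, whose normalization method is not given in these sources, have medians of 101 (Dnmt2-/-) and 102 (wild type) and were used only as an alternative. The centring and scaling behind them are unknown; for the first Ms4a3 probe the processed value was lower on the array labelled Dnmt2-/- (1384) than on the wild type array (1501) while its raw signal was higher.

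Background was corrected with normexp (limma 3.58.1, R 4.3.3) from the detection p-values, with an offset of 16, then log2 and quantile normalization. These steps were tested on simulated data in which only probes well above background were changed. That test did not cover changes in dim genes. Of all probes, 34885 had 1 gene symbol in the platform annotation, 18 had several and were not used. All 9 symbols matched GRCm38.p6 by Entrez identifier. A gene was represented by its probe with the highest mean. No test was possible. The members, lists and thresholds were chosen with earlier results of these data known. Genes outside the members were drawn from the 2 brightest and the 2 with the largest difference past 1.5-fold in each list. Ctsc, Srgn, Kit, Cebpa, Cebpe, Gfi1, Runx1, Gzmb, Gzmd, Gzme, Ncr1, Cd4 and Cd8a were named after their values were seen. So were Ltc4s, Lta4h, Cysltr1, Csf1r, Cd14, Ccr2, Cd163, Hax1, Jagn1 and Il5ra. Alternatives were no background correction, an offset of 50, median scaling, cyclic loess, the processed values, a detection p-value below 0.05, no detection filter, and the mean over detected probes.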

Additional observations from a re-analysis of the deposited data

How the results depend on the processing

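Over 8 alternatives the median of the 9 primary granule genes ran from -0.33 to -0.25 on the log2 scale, and no gene was at least 1.5-fold higher or differed by 2-fold in any of them. The count at least 1.5-fold lower was 3 in the main setting and 1 with median scaling, which also moved the median of all genes to 0.14, so that the members' median relative to all genes was -0.46. With that scaling 13.8% of all genes were at least 1.5-fold higher and 1.84% at least 1.5-fold lower, beside 6.61% and 5.16% in the main setting. The medians of the related lists moved by less than the SD between probes of a gene, but with median scaling 3 of them changed sign, to 0.01 for other azurophil contents, 0.06 for protease maturation and 0.09 for transcription factors. The T and NK cell median, -0.79 in the main setting, was -0.34 without background correction, -0.48 with an offset of 50, -0.35 with the processed values and -0.04 without a detection filter, and the cartilage and bone median, 1.17 in the main setting, ran from 0.62 to 1.31. No paired analysis was possible because each group has 1 array. Signal over background limits Rab44 and the second Ms4a3 probe most among the detected members, at 2.76 and 2.30 times the fitted background on the array labelled Dnmt2-/- and 3.66 and 2.61 times on the wild type array.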

Other observations

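Ctsg lies on chromosome 14 in the cluster of granzyme and mast cell protease genes, between Mcpt8 and Gzme. Its neighbours were dim on both arrays. Mcpt8, a basophil protease, gave 227 on the array labelled Dnmt2-/- and 234 on the wild type array, a log2 ratio of -0.44. Mcpt4, a mast cell protease, gave 135 on the array labelled Dnmt2-/- and 103 on the wild type array, a log2 ratio of 0.78. Gzme and Gzmd were not detected on either array. Over this list, 3 of 13 other genes on the array were detected on both, with a median of -0.07.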
